A study of Mus musculus with 6 samples.

Results

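The 78 genes of mitochondrial ribosomal proteins were described across 3 wild-type and 3 Rnf111+/- mouse ovaries. Members were the gene symbols that start with Mrpl (large subunit) or Mrps (small subunit) followed by a digit and that reached 10 counts in at least 3 of the 6 libraries. Of 35415 genes in the count table, 78 symbols matched and 78 passed this minimum, 49 of the large and 29 of the small subunit. The lowest count of any member in any library was 481 and the highest 3396, so no member lay near the minimum. All 78 were among the 16841 genes tested between the genotypes.

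Mitochondria hold their own ribosome, which translates the few proteins encoded by mitochondrial DNA, core subunits of the respiratory chain and ATP synthase. Its ribosomal RNAs come from mitochondrial DNA, whereas its proteins are encoded in the nucleus, made in the cytosol and imported. The large subunit joins amino acids and the small subunit holds the messenger RNA and reads its codons. Oocytes carry many mitochondria and steroid-producing ovarian cells begin hormone synthesis inside them, and inherited defects of mitochondrial translation are a known cause of early ovarian failure.

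The libraries were bulk RNA sequencing of whole ovary from mice of 3 months at estrus, 3 labelled wild-type and 3 labelled Rnf111+/-, each from a separate mouse by its title. Rnf111 encodes the ubiquitin ligase Arkadia, and the heterozygous mice were made with CRISPR-Cas9 to model loss of 1 copy of the gene in premature ovarian insufficiency. The mouse strain, the edited position and which of the study's edited models was sequenced were not given in the sources used here. Levels are given in CPM, counts scaled to the size of the library, with libraries brought to 1 scale by the trimmed mean of M values. Throughout, a level is given per library or as mean ± SD of 3 libraries, and a log2 fold change, Rnf111+/- over wild type, as value ± SE.

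Rnf111 itself was at 53.9 ± 0.477 CPM in wild type and 44.6 ± 0.394 CPM in Rnf111+/- ovaries (SD, n = 3 each). Its log2 fold change was -0.27 ± 0.07 (SE), with an adjusted p of 0.04 by edgeR's quasi-likelihood test over all genes tested, and the groups did not overlap. That call was lost without any single library but wild-type replicate 3 (adjusted p up to 0.146). Library totals ran from 38261449 to 39474515 counts. Wild-type replicate 3 stood apart: across genes, the correlation of log2 CPM was 0.974 between it and wild-type replicate 1, 0.975 between it and replicate 2, and 0.989 between replicates 1 and 2. Its 4 oviduct epithelium markers summed to 161 CPM, against 2.53 to 11 CPM in the other 5 libraries, and its 11 granulosa markers to 3776 CPM, against 7655 to 10980 CPM. Markers of oocytes, granulosa, theca and luteal cells were detected in every group, and no marker of the 13 lists checked was at 0 in all libraries.

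Genes of both ribosomal subunits were slightly lower in Rnf111+/- ovaries, by about the same amount. The median log2 fold change, Rnf111+/- over wild type, was -0.17 over the 49 large subunit genes and -0.19 over the 29 small subunit genes, against -0.01 over all genes tested. The fold change was below 0 for 47 of 49 large and 25 of 29 small subunit genes, 72 of 78 in all, where 51.3% of all genes tested were below 0. In 39 members, 26 of the large and 13 of the small subunit, every Rnf111+/- library was below every wild-type library, and 16.9% of all genes tested showed this. The opposite, every Rnf111+/- library above every wild-type library, was seen in 1 member, Mrps30, against 15.1% of all genes.

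Few of these differences passed a test gene by gene. With edgeR's quasi-likelihood test and Benjamini-Hochberg adjustment over the 16841 genes, 7 of 78 members (8.97%) fell at an adjusted p under 0.05 and 0 rose. Among all genes, 5.74% fell and 3.9% rose, so the share of members called is near the background. The large subunit had 5 of 49 (10.2%) and the small subunit 2 of 29 (6.90%). At an unadjusted p under 0.05, 28 members were lower and 1 was higher, against 13.9% and 11.6% of all genes. DESeq2 called 12 members lower and 0 higher, against 8.57% and 6.96% of all genes.

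**Figure D1:**
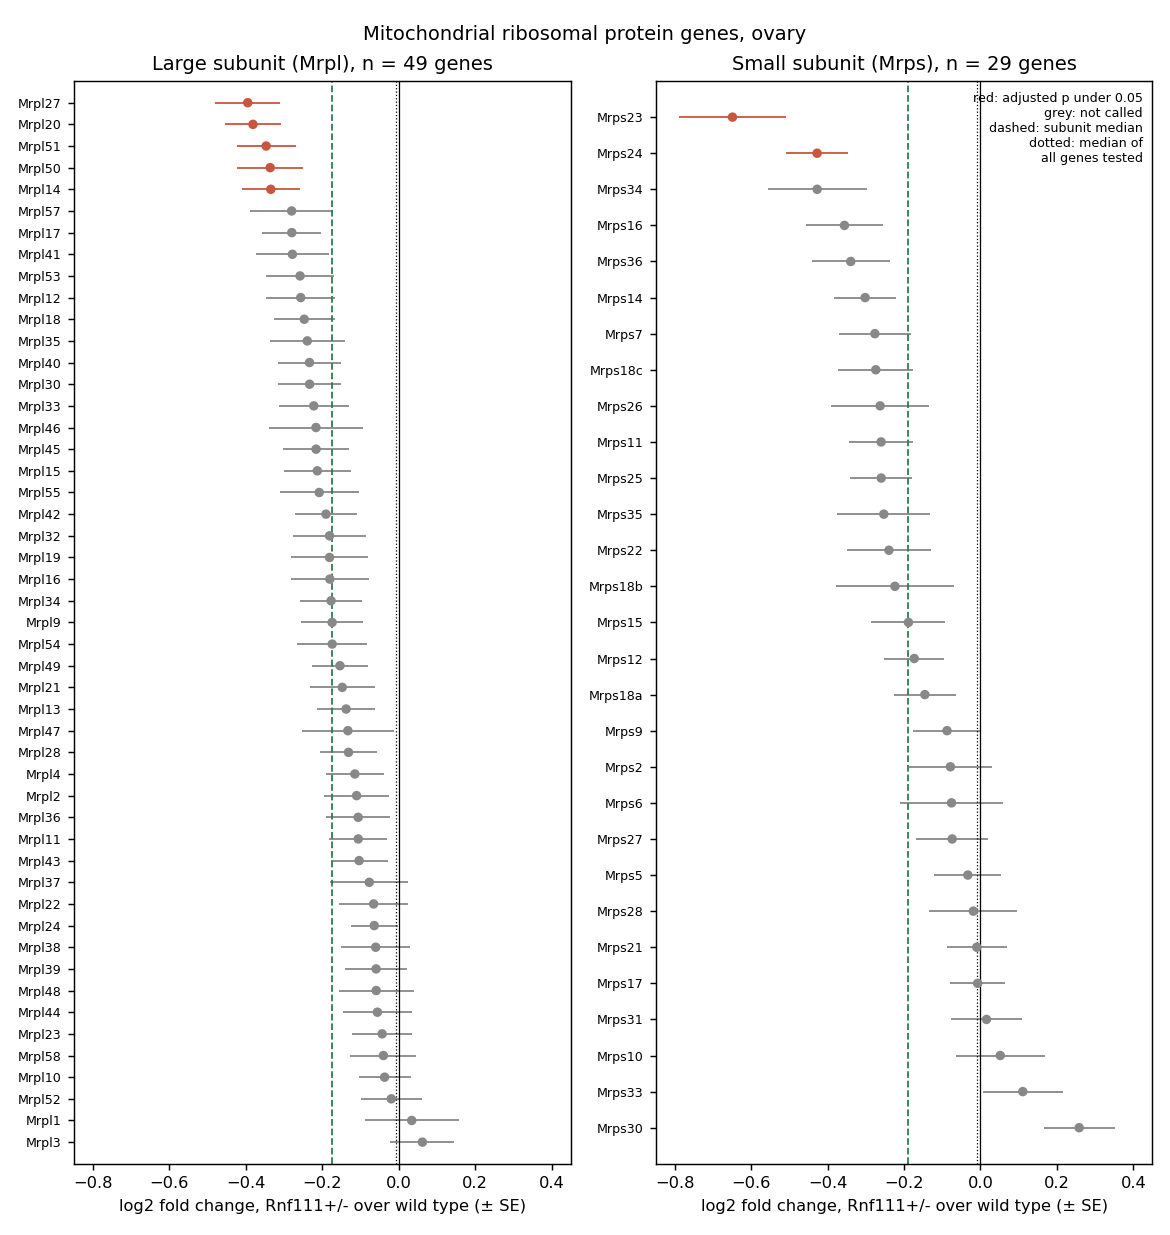
Log2 fold change of each member, Rnf111+/- over wild type, with its SE (horizontal axis), for the 49 large and 29 small subunit genes in order of fold change. Most points lie left of 0, the subunit medians (dashed) are -0.17 and -0.19, and the 7 genes in red passed the test.

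The calls depended on which libraries were in the fit, more than the direction did. Without wild-type replicate 3, 17 members fell, among them all 7 called on all libraries, against 8.82% of all genes. Without wild-type replicate 1 the call was kept by 1 of the 7 (Mrpl20), without wild-type replicate 2 by 1 (Mrps24), without Rnf111+/- replicate 1 by 2 (both of these) and without Rnf111+/- replicate 2 or 3 by 0. In these 5 fits, in the same order, 3.04%, 2.95%, 2.75%, 1.72% and 1.93% of all genes fell. Between 66 and 72 of the 78 members stayed below 0 over the 6 fits with a library left out. Without wild-type replicate 3, 56 members had non-overlapping lower groups, against 24.7% of all genes.

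In the large subunit, 5 genes fell. Mrpl27 encodes the counterpart of bacterial L27, a protein that reaches into the peptidyl transferase centre. It was at 36.0, 34.4 and 38.1 CPM in wild-type replicates 1 to 3 and at 26.5, 27.9 and 28.2 CPM in Rnf111+/- replicates 1 to 3. All Rnf111+/- libraries lay close together and below the wild-type ones, and the log2 fold change was -0.40 ± 0.09 (SE, adjusted p = 0.0248). Its promoter is printed because it carries a CCGGAAG core, the site form of ETS factors such as NRF2 (GABP), in capitals, 55 bases before the annotated start, at chr11:94653541-94653790 on the plus strand of GRCm38.p6 (RefSeq), 5′ to 3′ and ending at the base before the start.
Mrpl27: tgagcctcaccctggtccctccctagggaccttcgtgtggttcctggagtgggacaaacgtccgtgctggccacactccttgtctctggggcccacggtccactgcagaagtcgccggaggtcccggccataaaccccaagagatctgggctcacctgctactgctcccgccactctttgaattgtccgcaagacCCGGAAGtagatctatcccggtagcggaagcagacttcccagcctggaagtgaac

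Mrpl20 encodes the counterpart of bacterial L20, which binds early in assembly of the bacterial large subunit. It was at 48.3, 51.9 and 50.2 CPM in the wild-type libraries and at 39.2, 38.2 and 38 CPM in the Rnf111+/- libraries, a log2 fold change of -0.38 ± 0.07 (adjusted p = 0.016). The gap between the groups was wider than the range within either. Mrpl14 encodes the counterpart of bacterial L14, on the face that meets the small subunit. It was at 40.7, 40.0 and 42.0 CPM against 32.0, 32.7 and 32.6 CPM, a log2 fold change of -0.33 ± 0.08 (adjusted p = 0.029), with the tightest libraries of the 7 in both groups.

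Mrpl51 and Mrpl50 encode proteins of the large subunit that bacteria lack, and variants of human MRPL50 have been linked to ovarian insufficiency. Mrpl51 was at 60.2, 61.0 and 54.5 CPM in wild type and at 47.6, 45.6 and 45 CPM in Rnf111+/- ovaries, a log2 fold change of -0.35 ± 0.08 (adjusted p = 0.027). Mrpl50 was at 52.7, 53.5 and 45.7 CPM against 39, 41.1 and 40.2 CPM, a log2 fold change of -0.34 ± 0.09 (adjusted p = 0.0439). In both genes wild-type replicate 3 was the lowest of its group and still above every Rnf111+/- library. The call of Mrpl50 was lost with upper-quartile scaling (adjusted p = 0.0568). Over the 5 called large subunit genes, the highest adjusted p with a library left out ran from 0.0843 (Mrpl20) to 0.146 (Mrpl50).

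The other 44 large subunit genes did not pass. Mrpl24, the large subunit member with the most counts, was at 75.4, 75.6 and 75.4 CPM against 71.9, 72.7 and 71.9 CPM, a log2 fold change of -0.06 ± 0.06 (adjusted p = 0.563). Its groups did not overlap, yet the fitted level was 95.7% of wild type with an interval of 2 SE on each side from 87.9 to 104%. The 3 highest fold changes of the subunit were 0.06 ± 0.08 for Mrpl3, 0.03 ± 0.12 for Mrpl1, a protein of the stalk through which spent tRNA leaves, and -0.02 ± 0.08 for Mrpl52, with adjusted p from 0.699 to 0.911. Groups overlapped in these 3 genes, and the sign of Mrpl1 and Mrpl52 changed with the library left out, that of Mrpl52 also with upper-quartile scaling (0.01).

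In the small subunit 2 genes fell, and 1 of them had the lowest fold change of all members. Mrps23 encodes a small subunit protein that bacteria lack. It was at 77.7, 88.0 and 58.0 CPM in wild-type replicates 1 to 3 and at 49.1, 45.8 and 47.8 CPM in the Rnf111+/- libraries, a log2 fold change of -0.65 ± 0.14 (adjusted p = 0.0271). The wild-type libraries were spread widely, with replicate 3 nearest to the Rnf111+/- libraries, whereas the latter were within a few CPM of each other. Without wild-type replicate 3 the log2 fold change was -0.79 ± 0.08 (adjusted p = 8.16e-05), and with another library left out the adjusted p reached at most 0.113. Mrps24 encodes the counterpart of bacterial S3, which lies at the entry of the messenger RNA channel. It was at 60.7, 54.4 and 60.5 CPM against 45.2, 40.7 and 44.6 CPM, a log2 fold change of -0.43 ± 0.08 (adjusted p = 0.0159, at most 0.0864 with a library left out). Both groups were tight and did not overlap.

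The promoters of these 2 genes and of Mrps30, the highest small subunit fold change, are shown to set members that differ in direction side by side (RefSeq, GRCm38.p6, 5′ to 3′ along the gene and ending at the base before the annotated start). Capitals mark the TGCGCA core of sites of NRF1, a regulator of many nuclear genes for mitochondrial proteins, in Mrps23 (chr11:88204138-88204387, plus strand), 210 bases before the start. In Mrps24 (chr11:5707702-5707951, minus strand) they mark 2 GC boxes, read as CCGCCC on the printed strand, 53 and 47 bases before the start. The sequence of Mrps30 (chr13:118387253-118387502, minus strand) holds none of the 5 motifs searched. Such an absence is not particular to Mrps30: the promoter of Mrpl50, which fell, holds none of them either.
Mrps23: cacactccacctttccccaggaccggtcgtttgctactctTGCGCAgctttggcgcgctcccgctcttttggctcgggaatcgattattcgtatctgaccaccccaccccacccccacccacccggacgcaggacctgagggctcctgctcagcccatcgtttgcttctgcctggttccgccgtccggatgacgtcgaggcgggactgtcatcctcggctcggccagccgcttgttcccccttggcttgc
Mrps24: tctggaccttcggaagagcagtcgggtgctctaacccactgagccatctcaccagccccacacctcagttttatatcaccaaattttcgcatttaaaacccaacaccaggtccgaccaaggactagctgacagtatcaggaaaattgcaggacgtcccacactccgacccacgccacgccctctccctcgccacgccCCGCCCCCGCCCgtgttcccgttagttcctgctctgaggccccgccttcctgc
Mrps30: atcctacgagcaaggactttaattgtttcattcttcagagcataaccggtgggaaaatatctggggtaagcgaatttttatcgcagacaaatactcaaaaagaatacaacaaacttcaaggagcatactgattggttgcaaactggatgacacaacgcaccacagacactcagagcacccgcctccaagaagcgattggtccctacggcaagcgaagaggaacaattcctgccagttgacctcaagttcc

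Mrps30 was the member with the highest fold change. By symbol it belongs to the small subunit, but in structures of the mammalian ribosome its protein sits in the large one. It was at 51.3, 49.4 and 42.9 CPM in wild type and at 52.9, 59.2 and 59.6 CPM in Rnf111+/- ovaries, a log2 fold change of 0.26 ± 0.09 (adjusted p = 0.123). All Rnf111+/- libraries were above all wild-type ones, but Rnf111+/- replicate 1 exceeded wild-type replicate 1 by little, and no setting tried called the gene. Its exons overlap those of B430218F22Rik on the opposite strand, and reads of the pair cannot be told apart where strand was not counted. Among symbols starting with Mrps, Mrps33 and Mrps10 followed with log2 fold changes of 0.11 ± 0.10 and 0.05 ± 0.12 (adjusted p = 0.558 and 0.825), and their groups overlapped. The value of Mrps10 turned to -0.03 without wild-type replicate 3 and also without Rnf111+/- replicate 1.

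**Figure D2:**
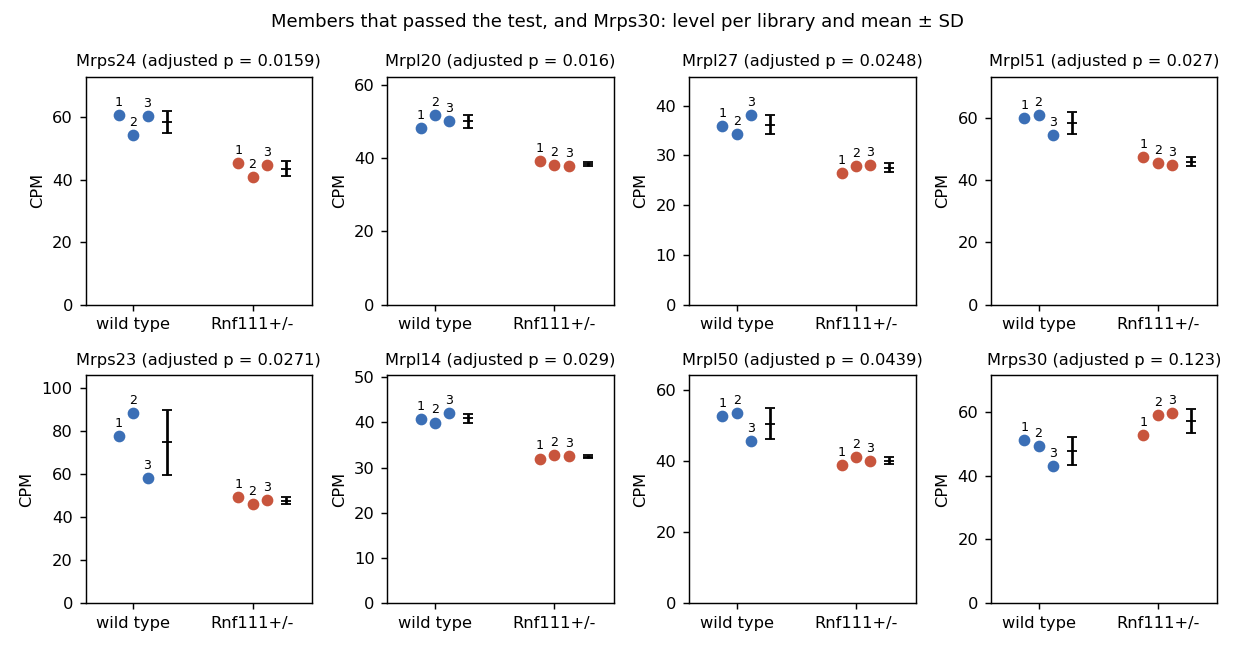
Level in CPM (vertical axis, from 0) of the 7 members that passed the test and of Mrps30, 1 point per library with its replicate number, and mean ± SD beside each group. In the 7 called genes every Rnf111+/- point is below every wild-type point, and in Mrps30 every one is above.

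Other members labelled Mrps were close to the threshold or changed sides. Mrps34, a small subunit protein without a bacterial counterpart, was at 51.5, 56.3 and 40.7 CPM against 40.3, 36.7 and 33.4 CPM, a log2 fold change of -0.43 ± 0.13 (adjusted p = 0.0759). Wild-type replicate 3 and Rnf111+/- replicate 1 nearly met. It passed with DESeq2 (adjusted p = 0.0345), without the filter on low counts (0.0409) and without wild-type replicate 3 (-0.54 ± 0.10, 0.00356), and its exons overlap Mapk8ip3 on the opposite strand. Mrps36 was at 24.0, 25.7 and 28.3 CPM against 19.8, 20.5 and 21.4 CPM, a log2 fold change of -0.34 ± 0.10 (adjusted p = 0.0725; DESeq2, 0.0363). Its product is known as a component of the 2-oxoglutarate dehydrogenase complex rather than of the ribosome, and 4 other annotated genes share its sequence. Mrps18a, which like Mrps30 sits in the large subunit, had a log2 fold change of -0.15 ± 0.08 (adjusted p = 0.313), with non-overlapping groups of 36.6 ± 1.96 and 33.1 ± 0.727 CPM.

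Other functional parts of the ribosome, chosen here by role after the values were seen, showed small differences that did not pass. At the exit of the peptide tunnel, Mrpl22, Mrpl23 and Mrpl24, counterparts of the bacterial proteins that ring it, were at -0.07 ± 0.09, -0.04 ± 0.08 and -0.06 ± 0.06 on the log2 scale. Mrpl45, which ties the exit to the inner membrane, was at 44.6, 47.3 and 42.7 CPM in wild type and at 40.8, 39.1 and 35.9 CPM in Rnf111+/- ovaries, a log2 fold change of -0.22 ± 0.09 (adjusted p = 0.156). In the stalk that recruits elongation factors, Mrpl12 was at 80.4, 85.5 and 72.7 CPM against 73.1, 63.8 and 62.9 CPM, a log2 fold change of -0.26 ± 0.09 (adjusted p = 0.115, and 0.0313 without wild-type replicate 3). Its stalk partner Mrpl10 was at -0.04 ± 0.07 (adjusted p = 0.781), with the groups overlapping in both genes. Mrpl58, a peptidyl-tRNA hydrolase built into the large subunit that frees stalled ribosomes, was at 37.1 ± 0.475 and 36.1 ± 2.75 CPM (-0.04 ± 0.09, adjusted p = 0.816). In the small subunit, Mrps12, the counterpart of bacterial S12 at the decoding site, was at 36.3, 38.2 and 38.4 CPM against 32.4, 33.6 and 34.1 CPM, without overlap (-0.17 ± 0.08, adjusted p = 0.209).

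The 3 members with the lowest adjusted p above the threshold were Mrps14, Mrpl17 and Mrps16. Mrps14 was at 43.3, 41.3 and 46 CPM against 35.8, 33.9 and 36.3 CPM, a log2 fold change of -0.30 ± 0.08 (adjusted p = 0.0521). Mrpl17 was at 70.4, 64.4 and 61.4 CPM against 55.7, 52.8 and 53.1 CPM (-0.28 ± 0.08, adjusted p = 0.0555), and Mrps16 was at 35.2, 32.1 and 31.8 CPM against 28.5, 24.3 and 24.6 CPM (-0.36 ± 0.10, adjusted p = 0.0594). Groups did not overlap in any of these 3. With Mrps34 and Mrps36 they made up the 5 members that passed with DESeq2 but not with edgeR, at adjusted p from 0.024 to 0.0363. The 10 members that were added without wild-type replicate 3 were Mrpl12, Mrpl17, Mrpl18, Mrpl30, Mrpl33, Mrpl57, Mrps7, Mrps16, Mrps34 and Mrps35.

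Human MRPS22 and MRPS7, like MRPL50, have been linked to ovarian insufficiency. Mrps22 was at 30.8, 35.2 and 27.3 CPM in wild type and at 25.5, 27.1 and 26.4 CPM in Rnf111+/- ovaries, a log2 fold change of -0.24 ± 0.11 (adjusted p = 0.212). Mrps7, the counterpart of bacterial S7 in the head of the subunit, was at 67.2, 71.0 and 56.8 CPM against 56.0, 51.9 and 53.1 CPM. Its log2 fold change was -0.28 ± 0.09 (adjusted p = 0.107), and -0.35 ± 0.08 without wild-type replicate 3 (adjusted p = 0.00916). In both genes wild-type replicate 3 came within 1 CPM of the highest Rnf111+/- library. A list of 12 genes was drawn up as linked to ovarian insufficiency or Perrault syndrome, which joins hearing loss and ovarian failure. It is not confined to mitochondrial translation, since it also holds Clpp and Polg. Of the 12, 1 fell (Mrpl50) and 0 rose, with a median log2 fold change of -0.04. That list holds Mrps7, Mrps22 and Mrpl50, and 5 of its genes were above 0. The highest was Aars2, the mitochondrial alanyl-tRNA synthetase, at 0.18 ± 0.10 (adjusted p = 0.307).

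Summed over genes, the large subunit was at 2188, 2193 and 2078 CPM in wild-type replicates 1 to 3 and at 1969, 1885 and 1913 CPM in Rnf111+/- replicates 1 to 3. The small subunit was at 1163, 1167 and 1059 CPM against 1027, 977 and 981 CPM. In both sums wild-type replicates 1 and 2 were nearly equal, wild-type replicate 3 was lower, Rnf111+/- replicate 1 was the highest of its group, and the groups did not overlap. The Rnf111+/- mean was 89.3% of wild type for the large and 88.1% for the small subunit. In bulk tissue, fewer cells with a high content of these transcripts and less of them per cell cannot be told apart.

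The balance of the subunits differed little between the genotypes. The ratio of large to small summed CPM was 1.88, 1.88 and 1.96 in wild type and 1.92, 1.93 and 1.95 in Rnf111+/- ovaries, and the Rnf111+/- mean was 101% of wild type. The range of wild type held all Rnf111+/- values. With Mrps18a and Mrps30 counted in the large subunit and Mrps36 in neither, the ratio was 2.16, 2.17 and 2.26 against 2.23, 2.29 and 2.31. The groups again overlapped only through wild-type replicate 3. The difference between the subunits was not tested, because the members were chosen with earlier results of these data known.

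**Figure D3:**
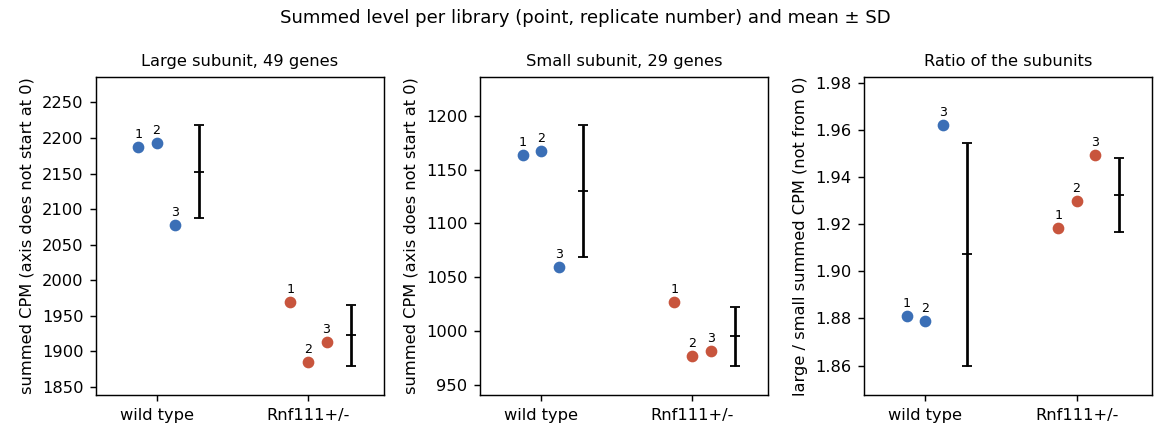
Summed CPM of the 49 large and 29 small subunit genes and their ratio in each library (vertical axes do not start at 0), with the replicate number above each point and mean ± SD beside each group. The sums of the groups do not overlap, and the ratios do, through wild-type replicate 3.

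Each library's position was shared by most members. Relative to a gene's mean over the 6 libraries, the median large subunit gene was at 0.11, 0.11 and 0.03 on the log2 scale in wild-type replicates 1 to 3 and at -0.03, -0.12 and -0.10 in the Rnf111+/- libraries. The small subunit was at 0.11, 0.10 and -0.03 against -0.05, -0.11 and -0.11. Wild-type replicate 3 thus lay between the other wild-type libraries and the Rnf111+/- ones in both subunits. The lowest library was an Rnf111+/- one in 69 of 78 members, and the highest was a wild-type one in 68.

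Levels of a given member varied little within a genotype. The median coefficient of variation of the members' CPM was 6.10% in wild type and 4.87% in Rnf111+/- ovaries, against 8.77% and 6.98% for the 6185 tested genes in the same range of mean CPM. The widest was Mrps23 in wild type at 20.4% and Mrps6, a small subunit protein, in Rnf111+/- ovaries at 17.4%. Per kilobase of the principal transcript (GENCODE, GRCm38), mean levels ran from 4.19 CPM per kilobase for Mrpl47 to 116 for Mrpl52, with Mrpl33 at 109 and Mrps21 at 91.7. Most of these proteins are present in 1 copy per ribosome, whereas the transcript levels per annotated length differed widely. Without division by length, mean levels ran only from 14.1 CPM (Mrpl47) to 73.8 CPM (Mrpl24), so the wide range depended in part on the annotated length. Whether the annotated transcripts are the ones present in these ovaries was not tested. The annotated length was 418 bases for Mrpl52 and 3364 for Mrpl47.

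Lower values were found in members of either ancestry. The 46 members named as counterparts of bacterial ribosomal proteins had a median log2 fold change of -0.17 and 4 fell (Mrps24, Mrpl20, Mrpl27 and Mrpl14). The 31 members found only in mitochondrial ribosomes had a median of -0.19 and 3 fell (Mrpl51, Mrps23 and Mrpl50). These calls were 8.70% of the first class and 9.68% of the second. Among all genes tested 5.74% fell, so both shares are near the background. The lowest median, -0.25, was that of the 10 mitochondria-specific genes of the small subunit by structure, whose summed CPM in Rnf111+/- ovaries was 82.5% of wild type. Much of the lower sum lay in Mrps23 (74.6 against 47.6 CPM) and Mrps34 (49.5 against 36.8 CPM). In 4 of the 10 the groups separated downward, and 2 were above 0. Differences between these classes were not tested. Wild-type replicate 3 was the lowest wild-type library in that sum too, at 334 CPM against 390 and 411 CPM, and the Rnf111+/- libraries were at 302 to 329 CPM.

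Shared sequence and transcript length were checked, because many of these genes are short, overlap neighbours or have processed copies. In 40 members the principal transcript overlaps an exon of another gene or shares at least 200 bases at 95% identity with one (GENCODE, GRCm38). Among these were Mrpl14 (with Tmem63b), Mrpl27 (with Eme1 and a copy) and Mrpl51 (with a microRNA gene and a copy), whose counts are less certain. The 38 members whose principal transcript has no such sequence had a median log2 fold change of -0.18, the same as the 40 with it. Of the 38, 4 fell (Mrps24, Mrpl20, Mrps23 and Mrpl50), or 10.5%, against 5.74% of all genes tested. In the 26 members with the shortest transcripts, 418 to 1018 bases, the median was -0.19, and tested genes of the same length were at -0.13. In the next 26, 1031 to 1849 bases, the medians were -0.13 and -0.06. In the 26 with the longest, 1962 to 7300 bases, they were -0.20 and 0.01. The part of length in the lower values was not tested.

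Each of the 5 motifs searched was in a larger share of the members' promoters than of all promoters, and 3 of them also than of the promoters of tested genes. These differences were not tested. Promoters, the 250 bases before the annotated start in RefSeq (GRCm38.p6), were found by symbol for 69 of 78 members and for 27025 genes in all, 13175 of them tested here. The NRF1 core TGCGCA, as in Mrps23 above, was in 18 of 69 members (26.1%), against 7.36% of all promoters and 11.9% of those of tested genes. The ETS core CCGGAAG, as in Mrpl27, was in 18 of 69 (26.1%), against 7.83% and 13.4%. The YY1 core AAGATGG was in 8.70% (5.18% and 5.02%), the E-box CACGTG in 7.25% (6.86% and 9.30%) and the GC box GGGCGG in 47.8% (35.4% and 58.5%). Both strands were searched, sites of different motifs may overlap, and a match is only a run of letters in this window.

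Of the 7 members that fell, 1 held TGCGCA, 2 CCGGAAG, 0 AAGATGG, 3 GGGCGG and 1 CACGTG. A pair of members, 1 of each subunit, start beside each other. Mrpl46 and Mrps11, the counterpart of bacterial S11, start on opposite strands with 41 bases between their annotated starts, at chr7:78783090-78783130 (GRCm38.p6, printed on the strand of Mrps11, with a GC box in capitals).
Mrpl46 to Mrps11: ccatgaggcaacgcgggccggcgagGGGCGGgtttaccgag
Mrpl46 was at 17.7, 18 and 17 CPM against 17.2, 13.6 and 14.7 CPM, a log2 fold change of -0.22 ± 0.12 (adjusted p = 0.317). Mrps11 was at 42.5, 39.2 and 38.4 CPM against 35.3, 32.2 and 32.7 CPM, a log2 fold change of -0.26 ± 0.08 (adjusted p = 0.0939). Rnf111+/- replicate 1 was the highest of its group in both, and the groups overlapped in Mrpl46 only. In GENCODE an exon of another Mrpl46 transcript overlaps the principal transcript of Mrps11 by 173 bases on the opposite strand, so part of their reads may be shared. The principal transcript of Mrpl46 itself overlaps no other gene.

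The 5 mitoribosomal proteins with other names gave a similar picture. Gadd45gip1, of the large subunit, was at 60.0 ± 2.75 CPM in wild type and 47.5 ± 1.21 CPM in Rnf111+/- ovaries and fell, with a log2 fold change of -0.34 ± 0.07 (adjusted p = 0.0245). Aurkaip1, of the small subunit, was at 63.1 ± 0.875 and 50.5 ± 2.16 CPM and fell, with -0.32 ± 0.07 (adjusted p = 0.0253). Chchd1, Dap3 and Ptcd3, also of the small subunit, were at -0.24 ± 0.09, -0.11 ± 0.07 and 0.02 ± 0.11 and did not pass. Both calls were lost without most single libraries, with an adjusted p of up to 0.115 for Gadd45gip1 and 0.122 for Aurkaip1 (both without Rnf111+/- replicate 2), and both were kept without wild-type replicate 3.

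Lists of genes that build or serve the ribosome had medians nearer to 0. Of 27 genes for assembly and rRNA modification, 1 fell and 0 rose, and the median log2 fold change was -0.03. The one that fell, Mpv17l2, needed for large subunit assembly, was at 33.9 ± 1.82 and 21.5 ± 2.42 CPM, a log2 fold change of -0.66 ± 0.11 (adjusted p = 0.00921; 0.0514 without Rnf111+/- replicate 3). Malsu1, a factor that binds the unfinished large subunit at Mrpl14, was at -0.29 ± 0.10 (adjusted p = 0.121), and Mterf3 at 0.26 ± 0.10 (0.135). Of 16 translation factors tested, 0 fell and 0 rose (median -0.07), with Taco1 at -0.33 ± 0.11, Mtif2 at -0.18 ± 0.08 and Tufm, the elongation factor, at -0.11 ± 0.06, all with an adjusted p of 0.0902 or more. Of 22 genes for charging mitochondrial tRNA, 0 passed (median -0.03), led by Kars at -0.25 ± 0.07 (0.0535), Mars2 at -0.65 ± 0.18 (0.0561) and Gatb at 0.44 ± 0.14 (0.0861).

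Of 24 genes for mitochondrial transcription and RNA processing, 1 fell and 0 rose, 8 were below 0, and the median log2 fold change was 0.08. Slirp fell from 34.0 ± 2.41 to 24.8 ± 0.651 CPM, a log2 fold change of -0.45 ± 0.09 (adjusted p = 0.019), whereas its binding partner Lrpprc, with which it stabilises mitochondrial messenger RNA, was at 0.36 ± 0.10 (0.0623). The call of Slirp was kept without wild-type replicate 2 or 3 and lost without any other library (up to 0.0832). The 13 proteins encoded by mitochondrial DNA had a median of 0.01 with 0 called, and their summed CPM in Rnf111+/- ovaries was 98% of wild type with overlapping groups. Their counts were very uneven: the wild-type mean was 10694 CPM for COX1 but 31.0 for COX2, 22.1 for COX3, 9.48 for ATP6 and 0.412 for ATP8. The sum thus rests on the highly counted genes, and the median includes poorly counted ones. The reason for the low counts was not tested. The mitochondrial ribosomal RNAs were not analysed here.

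Nuclear genes for the respiratory chain and ATP synthase were lower too, with a median somewhat further below 0 than that of the members (-0.18), and more of them passed. Of 78, 31 fell (39.7%) and 0 rose, the median log2 fold change was -0.23, and 38 fell without wild-type replicate 3. Groups did not overlap, Rnf111+/- lower, in 55 of them, against 39 of the 78 members. These genes were also counted more deeply, with a summed wild-type mean of 11247 CPM against 3283 CPM for the members. The part of depth in the number of calls was not tested. Ndufa4, a subunit of cytochrome c oxidase, was at 156 ± 6.29 and 111 ± 5.05 CPM (-0.49 ± 0.07, adjusted p = 0.00447), and Ndufb7 and Ndufb6 of complex I were at -0.43 ± 0.07 (0.00921) and -0.46 ± 0.08 (0.0111). The last 2 calls were lost without Rnf111+/- replicate 2 (adjusted p = 0.0565 and 0.0635). Of 27 import genes, 5 fell and 0 rose (median -0.23; 13 fell without wild-type replicate 3), among them Timm17b, a channel subunit, at -0.53 ± 0.08 (adjusted p = 0.00595). Of 79 cytosolic ribosomal protein genes, 1 fell (Rpl41, -0.30 ± 0.07, adjusted p = 0.0296, lost without any library but wild-type replicate 3, up to 0.133) and 0 rose, with a median of -0.04. Their summed CPM was 98.7% of wild type with overlapping groups, whereas that of the members was 88.9% without overlap. These contrasts between lists were not tested.

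**Figure D4:**
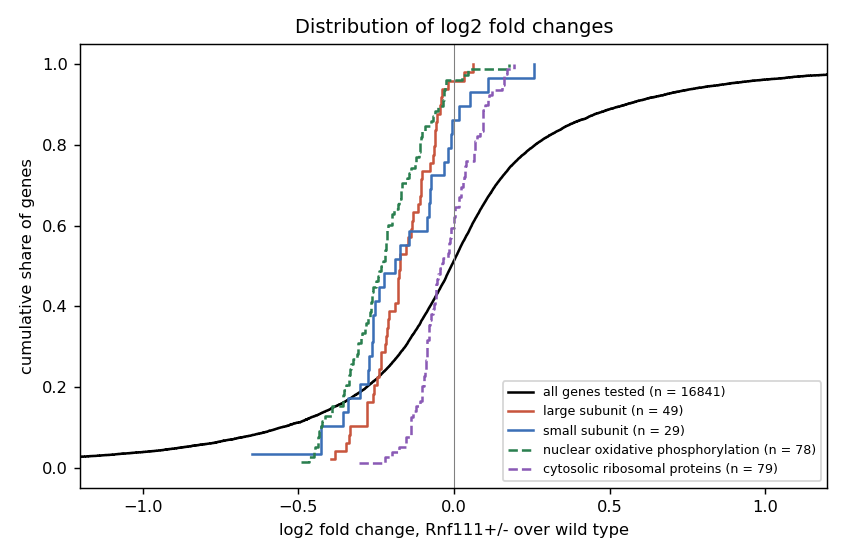
Cumulative share of genes (vertical axis) at or below each log2 fold change, Rnf111+/- over wild type (horizontal axis). The curves of both ribosomal subunits and of nuclear oxidative phosphorylation lie left of 0 for most genes, and cytosolic ribosomal proteins lie around 0 within a narrow range.

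**Figure D5:**
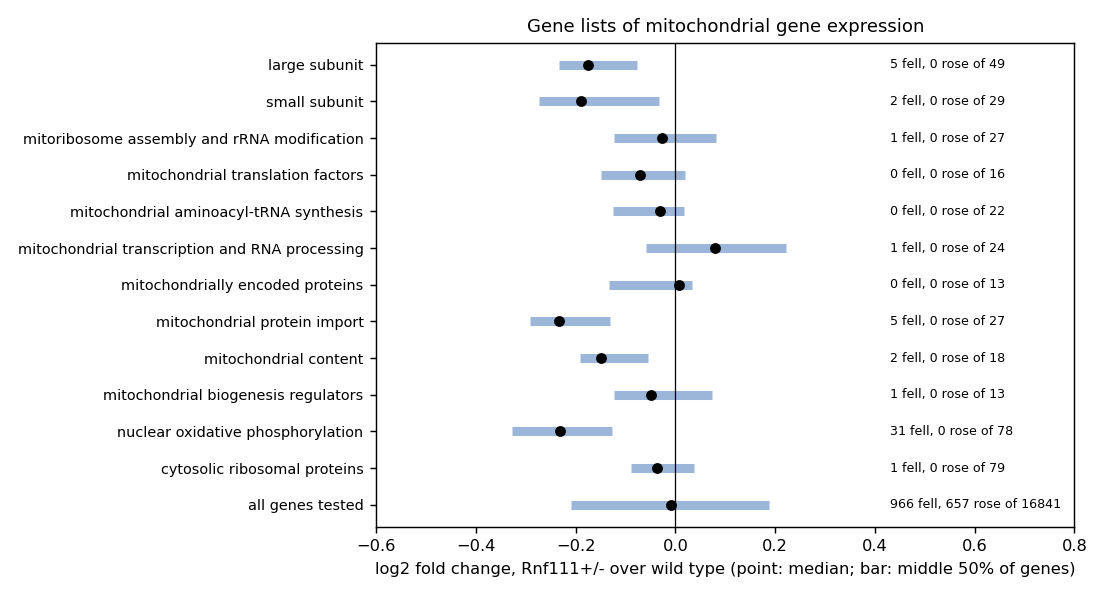
Median log2 fold change (point) and middle 50% of genes (bar) for 12 gene lists and all genes tested, with the number that fell and rose. Both subunits, import, content and nuclear oxidative phosphorylation have medians from -0.23 to -0.15, and the other mitochondrial lists drawn lie between -0.07 and 0.08.

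Cell type markers also moved with genotype. Of 12 oocyte markers 7 rose, and their summed CPM was 189 to 211 in wild type and 279 to 343 in Rnf111+/- ovaries. Of 7 stroma markers 5 fell (3375 to 3959 against 2074 to 2447 CPM), of 6 endothelium markers 3 fell (307 to 370 against 227 to 267 CPM) and of 8 theca and interstitium markers 2 fell and 1 rose (12446 to 13464 against 8944 to 11115 CPM). Smooth muscle and pericyte markers, 2 of 7 fallen, summed to 1189 to 1499 against 788 to 1028 CPM. Surface epithelium markers, 3 of 7 fallen and 1 risen, summed to 501 to 516 against 403 to 463 CPM. Of 9 luteal markers 3 fell and 0 rose, while their summed CPM was 2181 to 3485 against 5488 to 8180. Without wild-type replicate 3, 3 luteal markers rose and 3 fell. Of the members, 39 separated the groups downward, against 16.9% of all genes tested. That was the direction of the stroma, smooth muscle, endothelium, surface epithelium and theca sums. The theca markers themselves went both ways, with 4 above 0 and 4 below. Among them Cyp17a1 rose from 2.81 ± 1.53 to 197 ± 54.1 CPM, whereas Star and Hsd3b1 fell. Mrps30 alone of the members separated the groups upward, against 15.1% of all genes tested, the direction of the oocyte and luteal sums. Luteal markers too went both ways, with 5 below 0, 4 above and a median log2 fold change of -0.53. The part of these shifts in the members' lower values was not tested.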

How the data were processed

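The authors deposited whole-number read counts per gene symbol for 6 libraries, and every column matched a sample. Per the submitters' processing notes, fastp 0.20.1, HISAT2 2.1.0, HTSeq 0.11.2, DESeq2 1.38.3 and the build GRCm39 were used. Their roles, the annotation and the strand setting were not given in the sources used here.

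Counts were fitted with edgeR 4.0.16 in R 4.3.3 (filterByExpr at its defaults, trimmed mean of M values, robust quasi-likelihood fit, genotype as the only term, all 6 libraries), with a two-sided test and Benjamini-Hochberg adjustment over 16841 genes. Calls are at an adjusted p under 0.05, from edgeR where no other tool is named. The SE was taken as |log2 fold change| / sqrt(F). The code was tested on simulated data. No library was a copy of another: chi-square between libraries was at least 11.8 per degree of freedom. Alternatives were 2 other scalings, 2 other filters, DESeq2 1.42.0, limma-voom (limma 3.58.1), a replicate block, subunits by structure, and each library left out.

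Members and lists were chosen with earlier results of these data known, so lists are given by counts and medians with no test. Named were all members that passed, the 3 lowest and 3 highest fold changes and the most counted gene of each subunit, members whose structural subunit differs, members linked to ovarian insufficiency, and 3 genes of smallest p in other lists; other genes were named after their values were seen. Lengths and overlaps came from GENCODE (GRCm38) and promoters from RefSeq (GRCm38.p6), joined by symbol only, since the counts are on GRCm39. Of 69 promoters, 60 had the 20 bases after the start inside an annotated transcript. A principal transcript was found for 78 members and 93.1% of tested genes.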

Additional observations from a re-analysis of the deposited data

How the results depend on the processing

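The medians of both subunits were below 0 in all fits run: leaving out 1 library gave -0.18 to -0.13 for the large (lowest without Rnf111+/- replicate 1, -0.13 without Rnf111+/- replicate 2) and -0.22 to -0.15 for the small subunit. Scalings, filters, tools and the block left 68 (upper quartile) to 72 members below 0, a count added after seeing the data. Calls were less stable. Leaving out 1 library gave 0 to 11 large and 0 to 6 small subunit genes that fell, while 1.72% to 8.82% of all genes fell. In these fits 530 to 2795 genes were called in either direction. DESeq2 called 2615 genes in either direction, and 1443 of them fell, 8.57% of all genes tested. It called 6 genes that fell in each subunit. With subunits by structure, the ratio of large to small CPM was 103.67% of wild type. Rnf111 lost its call with upper-quartile scaling (-0.24, adjusted p = 0.0602), with no filter (-0.27, 0.0762), with the replicate block (-0.27, 0.0653) and in 5 of 6 fits without a library (-0.27 to -0.26).

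Same-numbered libraries of the 2 genotypes deviated with correlations of 0.012, 0.0057 and 0.1, so no strong pairing by number was seen. The value of 0.1, for replicates 3, was the highest of any wild-type and Rnf111+/- pair. Such correlations cannot exclude that libraries were paired. With the replicate block, 1626 genes were called in either direction, and 948 of them fell, 5.63% of all genes tested. The block called 4 large and 3 small subunit genes, 6 of them among the 7 called without it. The call of Mrpl50 was lost (adjusted p = 0.0576) and Mrps34 was added (0.0406).

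Signs that reversed belonged to genes that were not called. With upper-quartile scaling, Mrpl52 was at 0.012. Leaving out 1 library gave ranges of -0.029 to 0.14 for Mrpl1, -0.056 to 0.026 for Mrpl52, -0.032 to 0.11 for Mrps10, -0.64 to 1.10 for Adipoq, -0.042 to 0.21 for Csf1r, -1.04 to 0.23 for Fabp4, -3.17 to 1.67 for Foxj1 and -3.875 to 0.36 for Ovgp1. The causes were not tested. Of the values of single named genes, 1072 of those under an alternative kept their side of the threshold, 119 lost a call, 29 gained one and 15 reversed. With 3 libraries a group, the 2-SE interval of a member spanned 87.9 to 104% of wild type at its narrowest (Mrpl24), so differences of a few percent were not detectable.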

Other observations

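Of 18 genes taken as measures of mitochondrial content, 2 fell and 0 rose, with a median log2 fold change of -0.15. Hspd1, the matrix chaperonin, was at 669 ± 75.3 CPM in wild type and 490 ± 22.4 CPM in Rnf111+/- ovaries (SD, n = 3 each), a log2 fold change of -0.45 ± 0.09 (SE, edgeR's adjusted p = 0.0207). Phb, an inner membrane scaffold protein, was at 165 ± 6.07 and 134 ± 4.96 CPM, -0.30 ± 0.07 (adjusted p = 0.0254). Hspe1, the partner of Hspd1, was at -0.20 ± 0.06 (adjusted p = 0.0925). Both calls were kept without wild-type replicate 3 and lost without any other library, with adjusted p of up to 0.103 and 0.127. The import gene Dnajc15, a cochaperone of the inner membrane translocase, was at 192, 163 and 200 CPM against 86.3, 72.4 and 79.5 CPM, a log2 fold change of -1.22 ± 0.10 (adjusted p = 0.000414), and was called with each library left out.

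Of 13 regulators of mitochondrial biogenesis, 1 fell and 0 rose, with a median of -0.05. Esrra, a nuclear receptor that drives genes of oxidative metabolism, was at 29.8 ± 3.26 against 22 ± 1.33 CPM, a log2 fold change of -0.44 ± 0.11 (adjusted p = 0.0414). The call was lost with upper-quartile scaling (0.0559), with the replicate block (0.0511) and without any library but wild-type replicate 3 (up to 0.171). Creb1 and Pprc1, the next by p that are no members, were at 0.14 ± 0.08 and 0.14 ± 0.12 (adjusted p = 0.319 and 0.503), and Tfam, which packages mitochondrial DNA, at 0.03 ± 0.08 (0.827).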
